A study of Mus musculus with 9 samples.

Results

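The imprinted Dlk1-Dio3 domain of mouse chromosome 12 carries one of the densest groups of miRNA genes of the genome, and 98 of the 1135 probes of a 3D-Gene miRNA array read its miRNAs. The members were chosen by name, as every probe whose mouse miRNA number is one of 47 known to lie in the domain, with any letter, arm or star (a star marks the strand of the hairpin that was held to be the minor one). Their intensity did not enter this choice. The arrays measured total RNA of glomeruli isolated by bead perfusion from female mice with no treatment, with 3 arrays in each of 3 groups. The groups were 9-month-old B6.MRLc1 mice with early glomerulonephritis (early GN), 14-month-old B6.MRLc1 mice with late glomerulonephritis (late GN) and healthy 9-month-old C57BL/6 mice (control). B6.MRLc1 is a congenic line that carries a part of chromosome 1 of the autoimmune MRL/MpJ strain on the C57BL/6 background, and its glomerulonephritis develops with age. For early GN the labels name C57BL/6 as the strain, and the groups therefore follow the disease state, the ages and the titles of the samples. The late GN mice were older than the controls and no control of their age was measured, so disease stage and age cannot be told apart.

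In this domain the maternal chromosome expresses the noncoding RNAs Meg3, Rian and Mirg together with the miRNAs, while the paternal chromosome expresses the protein-coding genes Dlk1, Rtl1 and Dio3. The miRNAs fall into several stretches along these transcripts. A first stretch runs from Meg3 to the antisense transcript of Rtl1, where miR-431, miR-433, miR-127, miR-434 and miR-136 lie opposite the Rtl1 coding sequence and guide cleavage of its mRNA. A short stretch follows in Rian, and the longest one runs from miR-379 to miR-410. The miRNAs of the domain are known for high levels in embryo, placenta and brain, where miR-134 restrains translation in dendrites, and the miR-379 stretch is also known from mesangial cells of diabetic mouse kidney.

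Mature sequences for 94 of the 98 probes were found in RefSeq (mouse build GRCm38.p6), where they spanned 180075 bases of the plus strand of chromosome 12, from 109563710 to 109743784. Of these, 31 probes matched by name and 63 through the arm that miRBase assigns to the older plain or star name. The sequences below belong to the miRNAs on which the comparisons turned. Capitals mark the seed, bases 2 to 8, through which a miRNA pairs with its targets. The first 8 stood higher in late GN once the arrays were given a common median, and miR-379 and miR-376a, shown last, stood lower.

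miR-770-3p: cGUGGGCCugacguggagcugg

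miR-665* (miR-665-5p): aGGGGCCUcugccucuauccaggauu

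miR-665 (miR-665-3p): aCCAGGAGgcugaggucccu

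miR-370 (miR-370-3p): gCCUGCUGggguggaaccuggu

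miR-667* (miR-667-5p): cGGUGCUGguggagcagugagcacg

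miR-667 (miR-667-3p): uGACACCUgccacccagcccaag

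miR-668 (miR-668-3p): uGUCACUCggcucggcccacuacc

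miR-494 (miR-494-3p): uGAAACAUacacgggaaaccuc

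miR-379 (miR-379-5p): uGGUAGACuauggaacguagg

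miR-376a (miR-376a-3p): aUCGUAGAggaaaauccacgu

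No 2 of these 10 sequences had the same seed. Among the 94 matched probes, 6 seeds were each carried by a pair of members. The seed of miR-379 recurred in miR-1193-5p, and that of miR-758* (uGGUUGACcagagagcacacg) recurred in miR-1197*.

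Most miRNAs of the domain were dim or not listed in glomeruli. The deposited table leaves a probe blank on some arrays, and such a probe is called not listed here. The rule by which the values were left blank is not given in the sources used here, so a blank shows only that no value was listed. Of the 98 members, 17 were listed on all 9 arrays, against 36.2% of all 1135 probes. Another 21 members were listed on no array, against 20.1% of all probes, and 60 on some arrays only. Plain-named strands were listed on all 9 arrays for 11 of 33 probes and star strands for 3 of 33, as were 3 of the 32 probes with an arm suffix. By stretch, the members on all 9 arrays were 4 of 22 from Meg3 to Rtl1, 1 of 4 in Rian and 12 of 72 from miR-379 to miR-410. Listed on no array were, for example, miR-431, miR-433 and miR-127* from the stretch opposite Rtl1, and miR-323-3p and miR-380-3p from the miR-379 stretch.

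**Figure D1:**
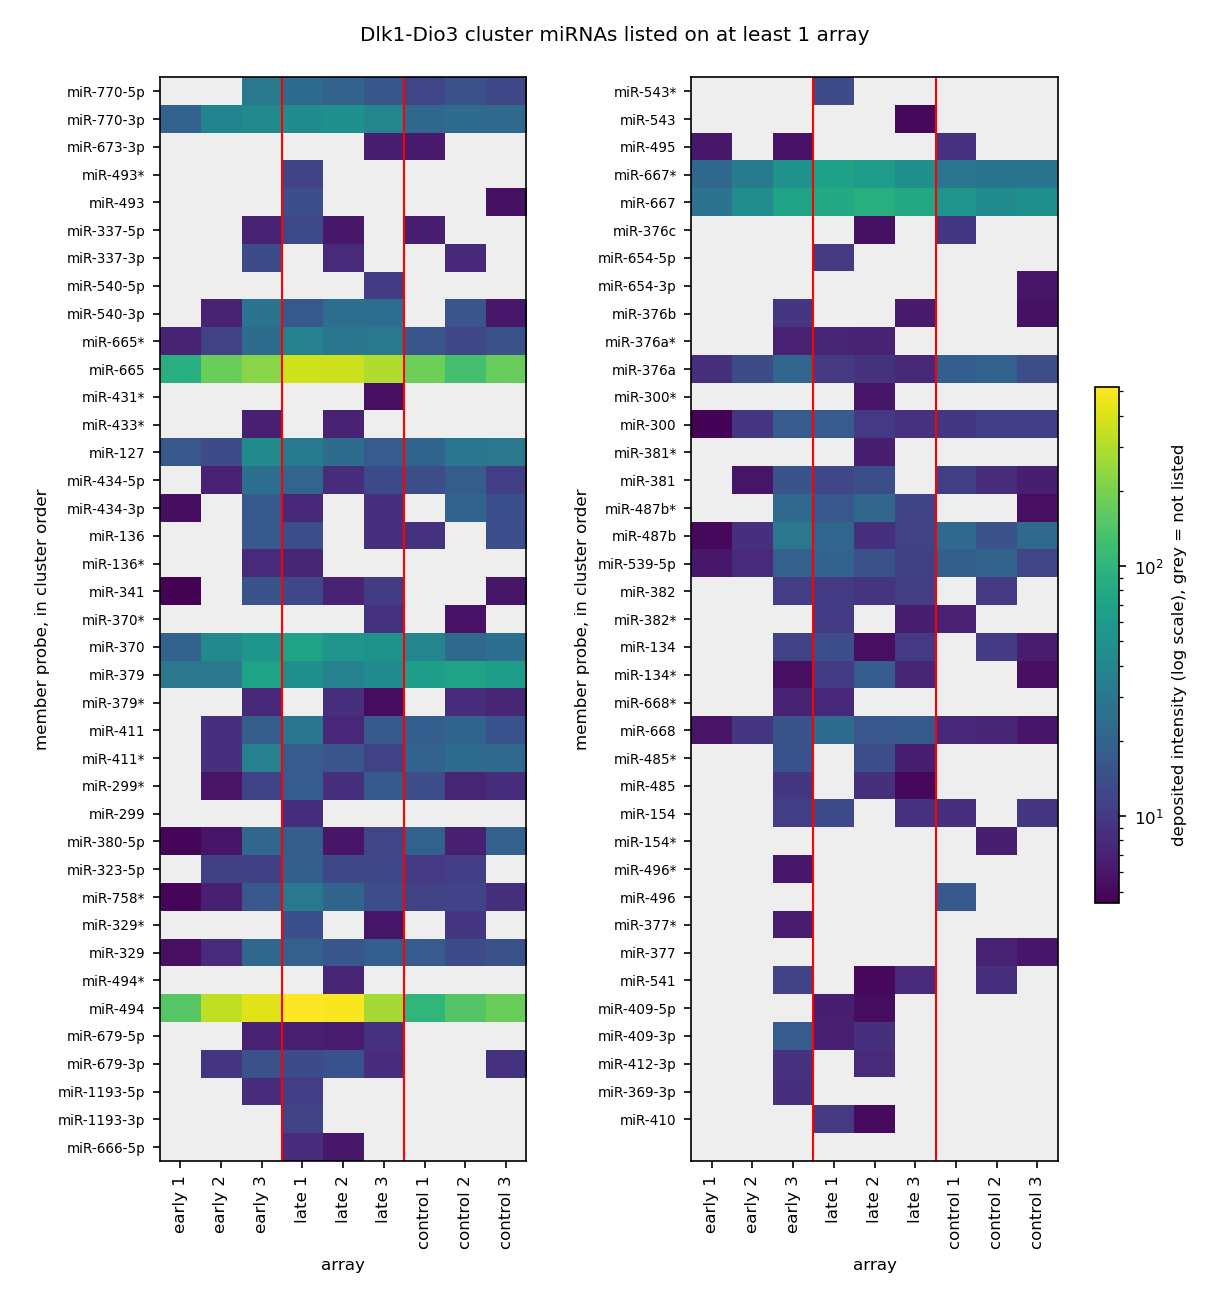
Deposited intensity (colour, log scale) of every member listed on at least 1 array, in the order of the hairpins along the cluster (rows), on the early GN, late GN and control arrays (columns). Grey fields are not listed. The bright rows are few, and early GN array 3 and the late GN arrays hold more listed fields than early GN arrays 1 and 2 and the controls.

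The number of members listed differed between the arrays as it did for all probes. Early GN arrays listed 20, 25 and 53 members, late GN arrays 52, 49 and 46, and control arrays 32, 35 and 37. All probes listed numbered 428, 498 and 738, then 755, 720 and 693, and 595, 588 and 589 on the same arrays. Early GN array 3 stood apart from the other 2 of its group in both counts. Members listed on all 3 arrays of a group numbered 17 for early GN, 31 for late GN and 23 for control, where the shares of all probes were 36.4%, 53.3% and 43.7%. In late GN, 36 members were listed on more arrays than in control, 6 on fewer and 56 on the same number, and over all probes these counts were 300, 37 and 798. miR-679-5p was the sole member that all arrays of one group listed and none of another. It had intensities of 6.80, 6.57 and 8.91 in late GN and no listed value in control, and 1 early GN array listed it at 7.11. Set against the lowest value listed on each control array, its late GN values were 1.31-fold higher. Since the rule for blanks is not given, this is no firm lower bound.

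The detection limit bears on most of these values. The median of the listed values of each array is 25 by the authors' scaling, and 190 of the 196 values of the members listed on some arrays lay under it. Their values ran between 4.66 and 35.7 with a median of 9.11. Among the 17 members on all 9 arrays, 9 also had a scanner signal above the blank spots' mean plus 2 SD on every array. Of all probes on the array, 27.8% passed this level on every array. The 9 members were miR-770-3p, miR-665, miR-665*, miR-127, miR-370, miR-379, miR-494, miR-667 and miR-667*. The other 8, which were miR-380-5p, miR-758*, miR-329, miR-376a, miR-300, miR-487b, miR-539-5p and miR-668, passed that level on 4 to 7 of the 9 arrays. The signal of a spot also depends on its probe, so intensities are compared between arrays and not between miRNAs. Below an intensity of 100, deposited values of members differed from the rescaled scanner signal with an SD of 3.75.

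miR-494 had the largest log2 fold change of the members in late GN against control with the deposited scaling. Its gene lies in the middle of the miR-379 to miR-410 stretch (chr12:109715367-109715388, plus strand). Its intensity was 152, 330 and 417 for early GN, 518, 492 and 274 for late GN and 103, 147 and 179 for control. All late GN arrays stood above all control arrays, while 1 early GN array lay within the control range. It averaged 428 ± 134.2 in late GN and 143 ± 38.2 in control (SD, n = 3 each).

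miR-668, from near the 3′ end of the stretch (chr12:109734774-109734797), lay close to the detection limit. Its intensity was 5.74, 9.57 and 15.2 for early GN, 23.9, 16.4 and 17.3 for late GN and 7.71, 7.46 and 5.95 for control. The late GN arrays again lay above all others, and the early GN arrays spread across the control range and above it.

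Late GN was compared with control first. Differences were tested with limma on log2 intensity of every miRNA listed on all 9 arrays, with the 3 groups in a single fit and Benjamini-Hochberg adjustment over all miRNAs tested. At an adjusted p under 0.05, 2 of the 17 members were higher in late GN and 0 were lower, where 3.89% of all tested miRNAs were higher and 0.243% lower. The log2 fold change was 1.56 ± 0.44 for miR-494 (SE, adjusted p = 0.0168) and 1.43 ± 0.44 for miR-668 (adjusted p = 0.0322). The moderated SE of this fit was the same for every member, so it does not describe the spread of a single miRNA. The order of the members by p therefore follows the size of the change alone. Before adjustment 9 members had a p under 0.05, of which 8 stood above control and 1 below, and over all tested miRNAs 27.5% stood above and 2.92% below at this level. The median log2 fold change of the 17 members was 0.76, beside 0.45 over all tested miRNAs, and 11 of the 17 lay above 0. Both calls were lost without any 1 of the control arrays and without late GN array 1 or 2 (adjusted p between 0.0775 and 0.326 over these fits), and that of miR-668 without late GN array 3 (adjusted p = 0.118). Without early GN array 1, 9 members passed (52.9%, beside 33.6% of all tested miRNAs), and 11 without early GN array 3 (64.7%, beside 55.5%). No slide held late GN and control arrays together, so slide and group cannot be told apart here, and neither call held when slide entered the fit as a random block (adjusted p = 0.0584 for miR-494 and 0.0758 for miR-668). miR-668, unlike miR-494, also missed the threshold under the 4 other scalings, which start from the scanner signal, where its log2 fold change was between 0.06 and 0.98, and with a pseudocount of 16 (adjusted p = 0.148). The number of arrays limits the precision of all these values, and the exact permutation test (2-sided) of 3 arrays against 3 cannot give a p below 0.1.

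The deposited scaling leaves the late GN arrays above the controls as a whole. When the tested miRNAs were given the same median on every array, 9 members were higher and 3 lower in late GN, where 32.1% of the tested miRNAs were higher and 29.9% lower. The median log2 fold change of all tested miRNAs was then 0.13 and that of the members 0.44. Under the 4 scalings from the scanner signal, the members' median instead lay below that of all tested miRNAs. It was 0.33 beside 0.43 with the spike controls, and −0.0089 beside 0.0033 with normexp and quantile normalization. With the 75th percentile it was 0.10 beside 0.21 over detected probes, and −0.17 beside −0.07 over all probes. Without overlap between the deposited values of the groups, 9 of the 17 members lay above the control arrays and 2 below, where the shares of all tested miRNAs were 49.1% and 21.7%. For the members these counts are shares of 52.9% and 11.8%.

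The higher members came from all stretches. Besides miR-494 (log2 fold change 1.25 ± 0.30 with a common median) and miR-668 (1.12 ± 0.20), they were miRNAs that did not pass with the deposited scaling. miR-770-3p, hosted by Meg3 itself (chr12:109563744-109563765), had intensities of 20.2, 38.04 and 43.9 for early GN, 45.1, 48.7 and 39.3 for late GN and 21.9, 23.8 and 23.3 for control. The control arrays lay close together and below all late GN arrays. With a common median its log2 fold change in late GN was 0.63 ± 0.21 (adjusted p = 0.0276), and 0.94 with the deposited scaling (adjusted p = 0.131). The other arm of its hairpin, miR-770-5p, was listed on all late GN and control arrays, at 23.6, 20.3 and 16.01 in late GN and 12.2, 14.7 and 12.4 in control, and only on array 3 of early GN, at 30.7. Both arms of this hairpin were thus higher on each late GN array than on each control array, as were 49.1% of the tested miRNAs. With unlisted values filled from the scanner signal, the log2 fold change of miR-770-5p was 0.59 (limma, adjusted p = 0.362). The median of all miRNAs in that fit was 0.55.

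miR-665 was read on both arms (chr12:109586331-109586387 for the pair). The 3p arm had 90.2, 178 and 223 for early GN, 371, 364 and 296 for late GN and 182, 129 and 171 for control. The 5p arm, miR-665*, had 7.24, 11.4 and 24.2 for early GN, 36.0, 28.9 and 30.3 for late GN and 15.8, 12.3 and 14.7 for control. For each arm every late GN array lay above every early GN and control array, and the early GN arrays enclosed the control range. The log2 fold changes in late GN with a common median were close, 0.79 ± 0.22 for miR-665 (adjusted p = 0.0116) and 0.84 ± 0.18 for miR-665* (adjusted p = 0.00358), and neither arm passed with the deposited scaling (adjusted p = 0.109 and 0.105).

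miR-667 was the other hairpin with both arms on all arrays (chr12:109720020-109720083). The 3p arm had 27.5, 46.6 and 69.1 for early GN, 78.6, 90.4 and 78.6 for late GN and 53.7, 44.2 and 48.5 for control. The 5p arm, miR-667*, had 21.8, 32.5 and 51.0 for early GN, 68.7, 61.2 and 47.9 for late GN and 28.9, 28.7 and 27.8 for control. The late GN arrays of each arm were all above the control arrays. With a common median the log2 fold changes were 0.44 ± 0.18 for miR-667 (adjusted p = 0.0486) and 0.73 ± 0.18 for miR-667* (adjusted p = 0.00739), and neither arm passed with the deposited scaling (adjusted p = 0.209 and 0.121). Under the 4 scalings that start from the scanner signal, the adjusted p was between 0.0797 and 0.512 for miR-667. For miR-667* it was between 0.0400 and 0.194.

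miR-370, one of the few miRNAs of the Rian stretch (chr12:109618305-109618326), had 20.5, 43.8 and 54.1 for early GN, 69.2, 53.8 and 51.6 for late GN and 39.0, 23.1 and 25.4 for control. Its late GN arrays lay above the controls, with a log2 fold change of 0.71 ± 0.25 with a common median (adjusted p = 0.0313). It passed under no other scaling, with an adjusted p of 0.124 as deposited and between 0.0532 and 0.184 under the 4 scalings from the scanner signal. miR-758* had 4.82, 6.86 and 16.2 for early GN, 30.5, 20.8 and 13.8 for late GN and 11.5, 11.7 and 8.74 for control. Its log2 fold change of 0.65 ± 0.25 with a common median (adjusted p = 0.0403) turned to −0.17 (adjusted p = 0.786) when scanner signal was scaled by the 75th percentile over all probes, so no direction is given for it.

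The lower members all lay in the miR-379 to miR-410 stretch, with higher members between them. miR-379, the first hairpin of that stretch (chr12:109709065-109709085), had 29.6, 29.5 and 70.1 for early GN, 47.5, 36.1 and 44.4 for late GN and 63.9, 70.1 and 64.0 for control. Every late GN array and 2 of the 3 early GN arrays lay below every control array. It averaged 42.7 ± 5.90 in late GN and 66.0 ± 3.51 in control (SD, n = 3 each), a log2 fold change of −0.95 ± 0.18 with a common median (adjusted p = 0.0025) and −0.64 with the deposited scaling (adjusted p = 0.309). Under the 4 scalings from the scanner signal its adjusted p was between 0.0161 and 0.329.

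miR-376a (chr12:109723824-109723844), known in brain for A-to-I editing of its hairpin, had 8.6, 13.6 and 21.1 for early GN, 9.999, 9.07 and 7.73 for late GN and 18.5, 19.6 and 13.9 for control. The late GN arrays lay below all control arrays and overlapped with early GN. Its log2 fold change with a common median was −1.26 ± 0.19 (adjusted p = 0.00186), and −0.95 with the deposited scaling (adjusted p = 0.131). miR-487b had 4.94, 8.70 and 29.6 for early GN, 21.1, 8.69 and 11.2 for late GN and 23, 14.5 and 22.6 for control, with overlap between all groups and a log2 fold change of −0.94 ± 0.34 with a common median (adjusted p = 0.0346) and −0.63 with the deposited scaling (adjusted p = 0.315). Under the 4 scalings from the scanner signal, the adjusted p was 0.0381 to 0.148 for miR-376a and 0.0333 to 0.238 for miR-487b. The opposite strand of miR-487b, miR-487b*, was listed in late GN at 16.4, 21.7 and 11.9 and in control on array 3 alone, at 5.48. In early GN it was listed on array 3 alone, at 22.9. This strand was thus listed on more arrays in late GN than in control, as were 300 of all 1135 probes.

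**Figure D2:**
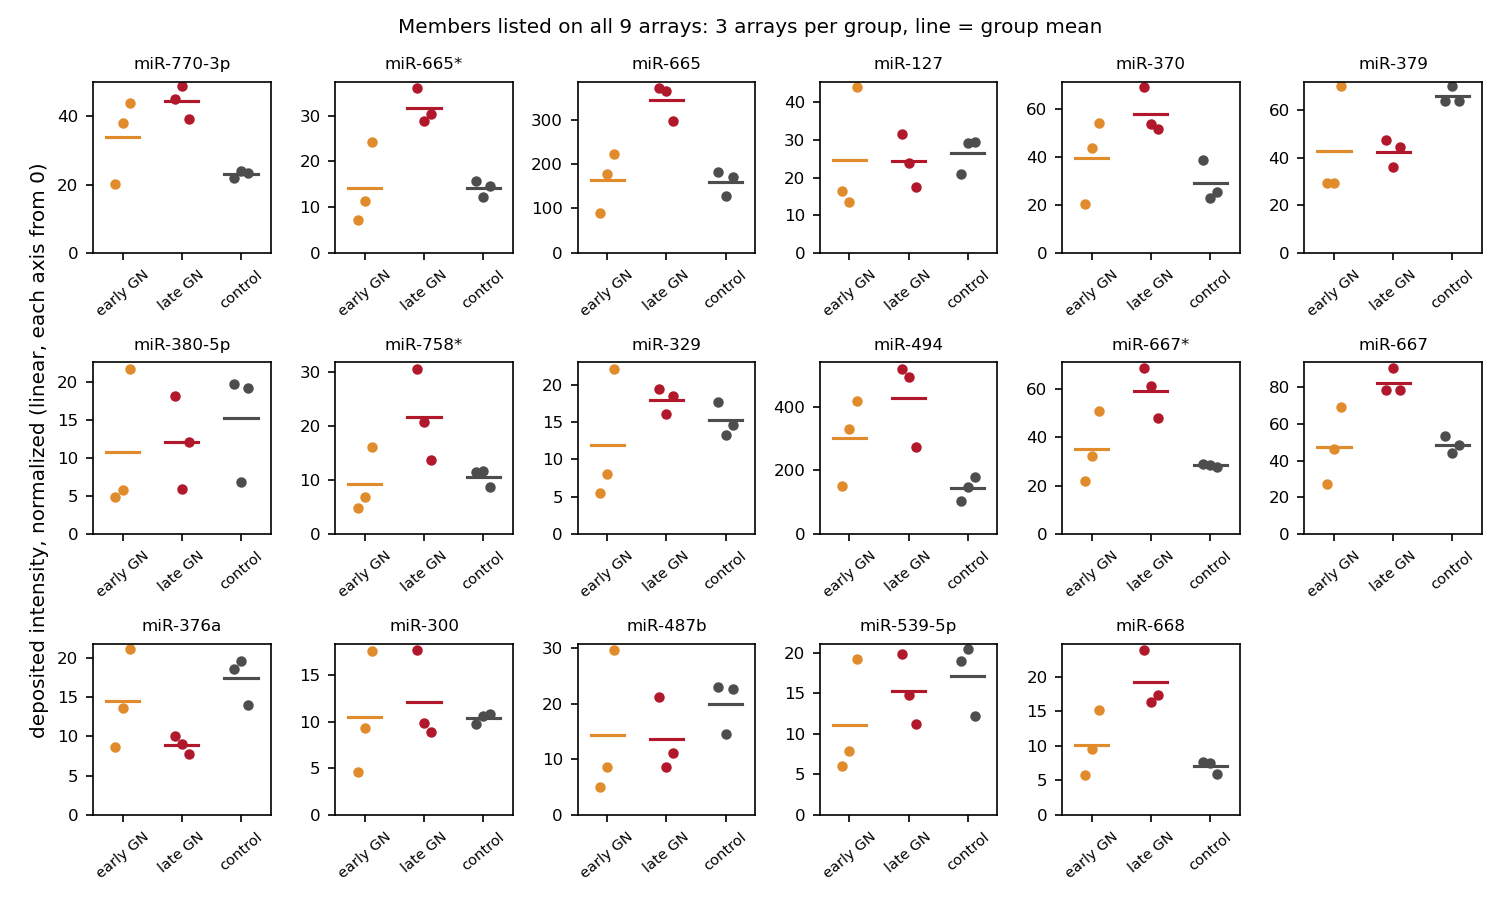
Deposited normalized intensity (linear axes from 0) of the 17 members listed on all 9 arrays, in cluster order, on the 3 arrays of early GN, late GN and control, with lines at the group means. The late GN points of miR-494, miR-668, both arms of miR-665 and both arms of miR-667 lie above all control points, those of miR-379 and miR-376a lie below, and early GN array 3 is the highest of its group in every panel.

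The remaining members gave no call in any comparison with either scaling. miR-127, which lies opposite Rtl1 and is one of the best studied miRNAs of the domain, had 16.3, 13.5 and 44.0 for early GN, 31.5, 23.9 and 17.4 for late GN and 20.8, 29.0 and 29.3 for control. All 3 groups overlapped. miR-329, miR-300, miR-380-5p and miR-539-5p were dimmer, with group means between 10.4 and 18.0, and their groups overlapped in late GN against control. Of the first stretch as a whole, 3 of 4 members lay above 0 in late GN with the deposited scaling (median log2 fold change 1.03), and of the miR-379 to miR-410 stretch 7 of 12 (median 0.20). With a common median, the 12 members of the miR-379 to miR-410 stretch divided into 5 above and 7 below 0. Of the 12, 8 were called, where 62.0% of all tested miRNAs were called.

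**Figure D3:**
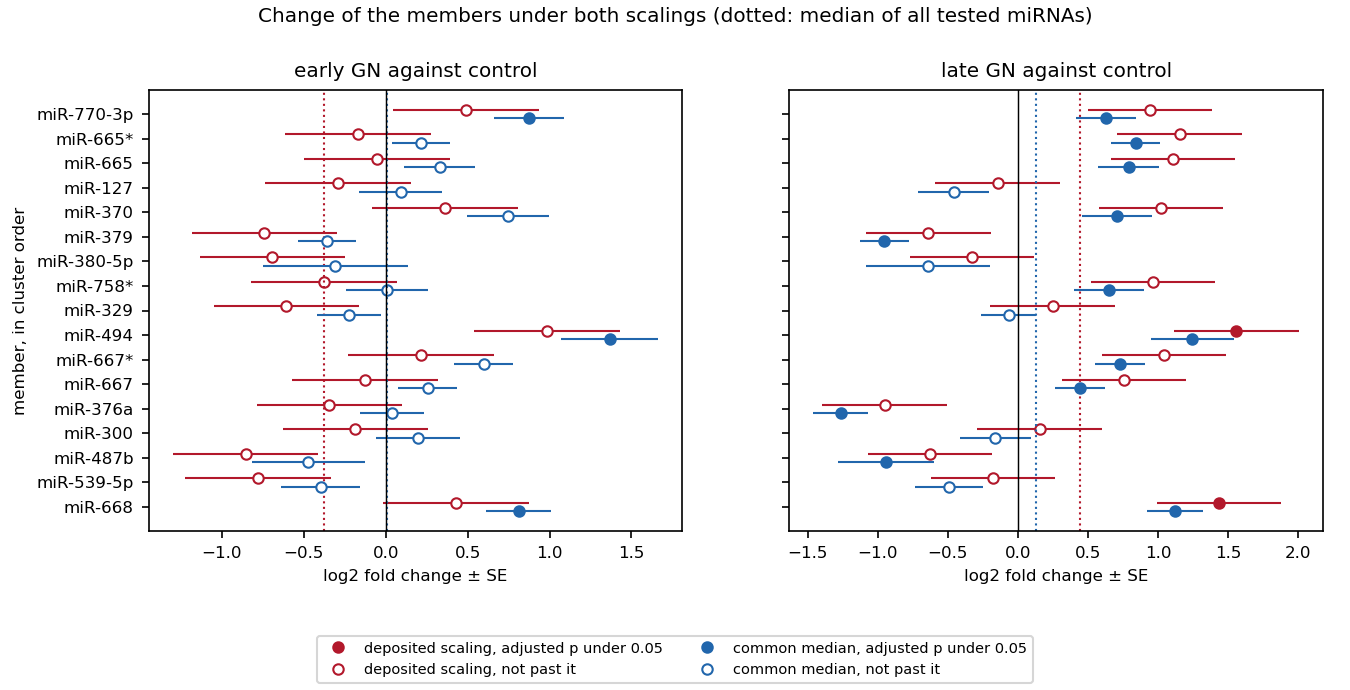
Log2 fold change ± SE of the 17 members in early GN (left) and late GN (right) against control, with the deposited scaling (red) and a common median (blue). The red SE is the same for every member. Filled points passed an adjusted p under 0.05 and dotted lines mark the median of all tested miRNAs. In late GN, 2 members are filled in red and 12 in blue, on both sides of 0.

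Base content ran along with this division. Among the 16 of the 17 members with a sequence, the 9 above 0 in late GN with a common median had a median of 65.2% G and C bases, and the 7 below 0 had 45.5%. The richest, miR-770-3p, miR-370, miR-667*, miR-668, miR-667 and miR-665, held 65.0% to 72.7%, and all of them lay above 0. miR-494 departed from this order, with 45.5% and a log2 fold change of 1.25. Across these 16 members Pearson's r between G and C content and the log2 fold change in late GN was 0.63 (Spearman's rho 0.50), and in early GN it was 0.55 (rho 0.71). These points share arrays, controls and, for the 2 hairpins with both arms, a precursor. Across 98 other miRNAs of the array whose names are RefSeq names, r was 0.39 in late GN and 0.49 in early GN, so the relation was not confined to the domain. Between late and early GN, r was 0.41 in the domain and 0.11 outside it. Whether base content has a part in the differences was not tested.

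**Figure D4:**
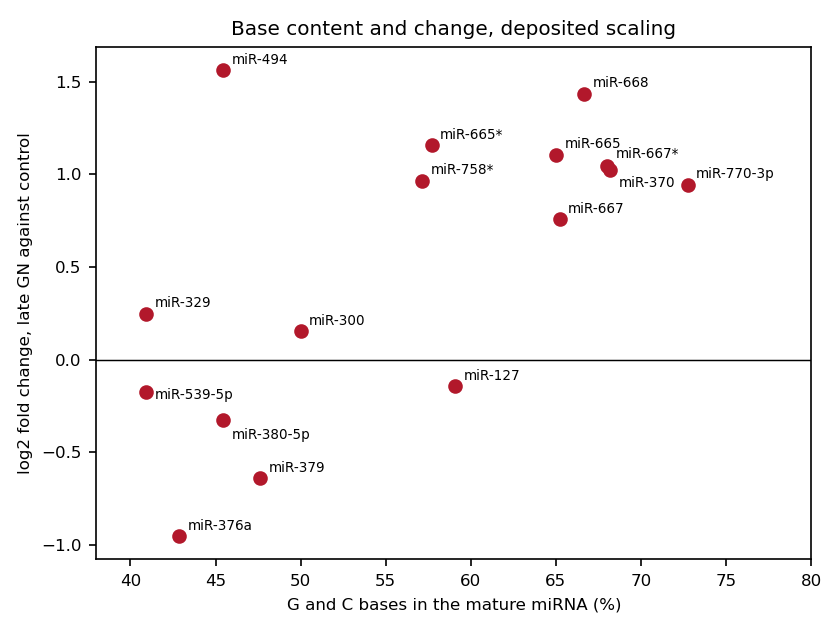
Share of G and C bases in the mature miRNA (x axis, %) against the log2 fold change in late GN over control with the deposited scaling (y axis) for the 16 members with a RefSeq sequence. The 6 members with 65.0% or more lie between 0.76 and 1.43, and miR-494 stands apart at 45.5% and 1.56.

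In early GN against control, 0 of the 17 members passed in limma with the deposited scaling, where 0.243% of the tested miRNAs were higher and 0.0% lower. Before adjustment 1 member had a p under 0.05, and it was higher, where 2.19% of all tested miRNAs were higher and 13.6% lower at this level. Dunnett's test and the other test of the study's methods called 0 as well. The members' median log2 fold change was −0.19, beside −0.38 over all tested miRNAs. Array-wide shifts were large in this group, with medians of −1.03, −0.61 and 0.51 (log2, relative to the mean of the controls) for arrays 1, 2 and 3. Without array 3, 9 members (52.9%) were lower and 0 higher, where 56.4% of all tested miRNAs were lower. With a common median 3 members were higher and 0 lower, where 6.81% of the tested miRNAs were higher and 3.89% lower. These were miR-494 (log2 fold change 1.37 ± 0.30, adjusted p = 0.0210), miR-770-3p (0.87 ± 0.21, adjusted p = 0.0297) and miR-668 (0.81 ± 0.20, adjusted p = 0.0297). This comparison and that of late GN use the same control arrays.

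Early GN array 1 and control array 3 lay on the same slide and allow a comparison within it. All 17 members had a lower deposited intensity on the early GN array, with a median log2 ratio of −0.86, beside −1.01 over all tested miRNAs. The smallest decreases, with that shift not removed, were those of miR-668 (log2 ratio −0.05), miR-770-3p (−0.21), miR-494 (−0.24) and miR-370 (−0.31). The largest were those of miR-487b (−2.20) and miR-380-5p (−2.002). The pair is a single array against a single array and has no replicate.

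Between late and early GN, 0 members passed in limma with the deposited scaling, where 1.46% of the tested miRNAs were higher and 0.243% lower. Without adjustment 5 members had a p under 0.05, all higher, where 30.2% of all tested miRNAs were higher and 0.243% lower at this level. The 2-group test of the study's methods called 0. The members' median log2 fold change was 0.61, beside 0.70 over all tested miRNAs, and 16 of the 17 lay above 0. miR-376a was the exception, and with a common median it was the sole member past the threshold (log2 fold change −1.30 ± 0.19, adjusted p = 0.0082), where 0.0% of the tested miRNAs were higher and 0.243% lower. miR-668, both arms of miR-665 and miR-667 had every late GN array above every early GN array, as did 21.4% of the tested miRNAs. Without early GN array 3, 15 members (88.2%) were higher in late GN, as were 91.5% of all tested miRNAs.

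The members not listed on every array could be placed only with unlisted values filled from the scanner signal. Of these, 15 were listed on all arrays of at least 1 group, 9 of them in late GN alone, so the choice itself favours members that are high in late GN and no count of their directions is given. None of the 15 passed the adjusted threshold in limma in late GN against control. Both arms of miR-411, the hairpin next to miR-379, had log2 fold changes of −0.19 for miR-411 (adjusted p = 0.771) and −0.60 for miR-411* (adjusted p = 0.359). miR-134 was listed at 13.9, 5.47 and 9.92 in late GN, at 11.2 on 1 early GN array and at 10.5 and 6.63 on 2 control arrays.

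Other imprinted miRNAs of the mouse genome were set beside the domain. Of 10 probes for miR-296, miR-298, miR-335, miR-483 and miR-675, 5 were listed on all 9 arrays. None of these passed the threshold in any comparison with the deposited scaling. Of all tested miRNAs, 0.243% passed in early GN and 4.14% in late GN against control, and 1.70% between late and early GN. With the deposited scaling, the log2 fold changes of these 5 had a median of −0.18 at the early and 0.70 at the late stage. The medians were −0.19 and 0.76 for the Dlk1-Dio3 members, and −0.38 and 0.45 over all tested miRNAs. Of the 5, miR-335-5p alone was lower in late GN, at 167, 105 and 116 against 216, 268 and 282 in control.

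The summed intensity of several cell type marker lists differed between the late GN and control arrays. A probe not listed on an array added nothing to its sum there. This bears on the brain and muscle lists and on miR-144 of the red blood cell pair, which was listed on 3 arrays. The probes of the glomerular endothelium (miR-126, both arms) summed to 15470 to 20716 in late GN and 24616 to 27460 in control. Those associated with podocytes (miR-30a, miR-30c, miR-30d and miR-26a) summed to 22495 to 24822 in late GN and 33830 to 38573 in control. Among the podocyte probes miR-30d alone overlapped between these groups, at 3806, 4425 and 4638 in late GN and 2780, 8157 and 6783 in control. Those of leukocytes (both arms of miR-142, miR-223 and miR-150) summed to 363 to 529 in late GN and 215 to 267 in control, with all 4 probes listed throughout. Within this sum miR-223 had 319.5, 239.8 and 322.8 in late GN and 99.5, 153 and 133.9 in control, whereas miR-150 had 64.8, 40.9 and 54.8 in late GN and 67.6, 54.1 and 65.8 in control. The red blood cell pair was lower in late GN, at 430 to 689 against 840 to 961 in control, and the proximal tubule set lay at 1065 to 1274 against 786 to 1142 in control, although its member miR-204 had 72.6, 68.8 and 56.8 in late GN and 126.9, 137.9 and 128.1 in control. Sums for mesangial and smooth muscle cells (miR-143 and miR-145) were 6597 to 7832 in late GN and 8760 to 9809 in control. Those of 8 skeletal and heart muscle probes, 5 of them listed on no array, were 17.6 to 27.2 and 37.2 to 42.3. Of the mesangial pair miR-143 overlapped, at 4037, 2907 and 3084 in late GN and 3850, 3273 and 4457 in control, and miR-145 did not. The liver miRNA miR-122 was listed on 1 late GN and 2 control arrays. The early GN arrays spread widely, for example at 10090 to 21872 for the endothelial and 93.9 to 373 for the leukocyte probes. Of 5 brain probes, miR-124 and miR-219-5p were listed on no array, and the whole set summed to 20.8 to 31.2 in late GN and 5.53 to 22.97 in control. These sums differ through probes that were not listed. The brain probe listed on all arrays of both groups, miR-128, overlapped, at 11.9, 8.74 and 9.39 in late GN and 16.3, 9.36 and 5.53 in control. Of the marker probes listed on all 9 arrays only miR-223 passed the threshold with the deposited scaling, in late GN against early GN. There 1.70% of all tested miRNAs passed. Their part in the changes of the domain was not tested, and in such tissue RNA a change in the number of cells of a type and a change of RNA per cell cannot be told apart.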

How the data were processed

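Mouse glomerular RNA was hybridized to single-colour 3D-Gene arrays. The authors scanned the arrays, and deposited linear fluorescence intensity after a global normalization of their own, with some probes left blank on some arrays by a rule not given in the sources used here. Deposited scanner signal (intensity of each spot, before normalization) gave detection against 1817 or 1818 blank spots per array and the other scalings. The deposited series table holds the same values for 1123 identifiers.

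The members and lists were chosen with earlier results of these data known. Groups were compared with limma 3.58.1 (R 4.3.3) on log2 intensity of the 411 miRNAs listed on all 9 arrays, in a fit of all 3 groups with 6 residual degrees of freedom. With the deposited scaling the moderated SE was the same for every member. Tests were 2-sided with Benjamini-Hochberg adjustment. Every member listed on all 9 arrays was named, and those past an adjusted p of 0.05 with the deposited scaling or a common median were given in full. Alternatives were a common median, the 75th percentile over detected or over all probes as the scale of the scanner signal, normexp (offset 50) with quantile normalization, a pseudocount of 16, the series table, wider miRNA sets, each array left out, replicate number or slide as a block, only the groups compared, trend and robust moderation, Dunnett's test (mvtnorm 1.3.3) and Student's test, which the methods name. Scaling to the spike controls was added after seeing the data. Tables and plots used Python 3.11.15, pandas 2.3.3, numpy 2.4.6, scipy 1.17.1 and matplotlib 3.10.9. Each array is described as 1 mouse, and the number of arrays limits the precision. Sequences are those of RefSeq (GRCm38.p6).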

Additional observations from a re-analysis of the deposited data

Results flagged for a closer look

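miR-679-5p lay outside the tested miRNAs, since it was not listed on every array, yet it was listed on all 3 late GN arrays with a mean intensity of 7.43 and on no control array. The rescaled scanner signal of its spot was 0.55, −5.05 and 3.83 on control arrays 1, 2 and 3, and the lowest value listed on these arrays was 6.31, 5.41 and 5.16. With unlisted values filled from the scanner signal its log2 fold change in late GN was 0.53 ± 0.43 (limma, adjusted p = 0.367).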

How the results depend on the processing

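The number of members past the threshold depended on the scaling of the arrays and on single arrays. In late GN against control, 2 passed with the deposited scaling. It was 12 with a common median (9 higher, 3 lower), 6 when scaled to the 75th percentile of detected probes (5 higher, 1 lower), 6 with that of all probes (3 higher, 3 lower), 11 with only these groups fitted (9 higher, 2 lower), 10 by the methods' t-test (8 higher, 2 lower), 1 with trend and robust moderation, and 0 with slide as a random block, with no filter on dim probes and by Dunnett's test. At an unadjusted p under 0.05, 7 of 17 members (6 higher) passed with slide as a random block. There 20.2% of all tested miRNAs were higher and 2.19% lower. With no filter it was 12 of 98 members (11 higher), where 14.6% of all were higher and 0.882% lower. By Dunnett's test it was 5 of 17 (all higher), where 15.6% of all were higher and 0.487% lower. In the first 5 alternatives named, from a common median to the methods' t-test, 70.6%, 35.3%, 35.3%, 64.7% and 58.8% of the members passed. The shares of all miRNAs tested were 62.0%, 43.1%, 38.4%, 66.2% and 55.7%. With normexp and quantile normalization 3 members passed (2 higher, 1 lower), 17.6% beside 37.0% of all. With the spike controls 3 passed (all higher), 17.6% beside 10.2%. The 1 member with trend and robust moderation was 5.88%, beside 2.68%. Leaving out single arrays gave 0 to 11 (64.7%, beside 55.5% of all tested miRNAs in that fit). In early GN against control the count was 0, against 3 with a common median (17.6%, beside 10.7% of all tested miRNAs). It was 2 (11.8%, all higher) with each scaling to the 75th percentile and with normexp and quantile normalization. The shares of all tested miRNAs there were 3.65% (detected probes), 5.35% (all probes) and 13.6% (normexp). Without single arrays the count was 0 to 9 (52.9%, beside 57.7% of all in that fit). Between late and early GN it was 0, against 1 with a common median (5.88%, beside 0.243% of all tested miRNAs). It was 1 with a pseudocount of 16 (5.88%, beside 2.19%), and 0 to 15 without single arrays (88.2%, beside 91.5%). Members detected on all 9 arrays numbered 17 as listed, 9 by scanner signal above the blank mean plus 2 SD, 9 by the 95th percentile of the blanks, and 17 to 21 without single arrays. By the first 3 of these measures the shares of all probes were 36.2%, 27.8% and 29.1%.

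miR-758* in late GN reversed to −0.17 when scaled by the 75th percentile over all probes and to −0.0089 with normexp and quantile normalization. The cause of these differences was not tested. Over all 17 members, 33 of 408 values of early GN against control, 15 of 408 of late GN against control and 47 of 391 of late against early GN changed sign, and none of these passed the threshold. miR-494 in late GN kept its direction in all alternatives. Replicate numbers did not pair the arrays (correlations of same-numbered arrays −0.22 to 0.34), and with replicate number as a block 2 members passed in late GN and 0 in the other comparisons.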
